A study of Triticum aestivum with 96 samples.

Results

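The genes described here are genes of wheat (Triticum aestivum) annotated to photosynthesis or the chloroplast, together with 3 probe sets for plastocyanin-like copper proteins, which entered by the word plastocyanin alone and whose descriptions do not place them in the chloroplast. They were represented by 76 probe sets among the 61179 on the array other than controls. A probe set entered if it stood in the part used here (1742 probe sets) of the study's annotated list and if the UniProt or rice description attached to it held photosystem, chlorophyll, rubisco, ribulose, plastocyanin, ferredoxin, thylakoid or chloroplast. Of 77 matches, 1 was set aside by name. The study had selected its list on the same arrays, by the effects of line, duration of cold and their interaction, so the members were chosen by measured values, and their differences between lines and days are given below as descriptions without p-values.

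Crowns were sampled, the short stem base that carries the shoot apex and from which winter cereals regrow. Seedlings at the 3-leaf stage were moved to 6 °C. Crowns were taken before the cold (0 days), after 2 days, after 14 and 21 days, after 35 and 42 days, and after 56 and 70 days, as 3 samples per line and duration, each a pool of crowns, giving 96 arrays in 32 groups. The lines were winter Norstar, which carries the recessive vrn-A1 allele, spring Norstar, in which the dominant Vrn-A1 allele of Manitou was backcrossed into Norstar, winter Manitou, in which the vrn-A1 allele of Norstar was backcrossed into Manitou, and spring Manitou, which carries Vrn-A1. All 4 lines carry vrn-B1 and vrn-D1. Vrn-A1 is the vernalization gene that sets whether a plant must pass through a long cold period before it flowers. No untreated plants of the later ages were sampled, so time in the cold and plant age cannot be told apart. In the growth conditions the paper describes, light was also weaker in the cold chambers than before the move. In differences from 0 days, cold and weaker light therefore cannot be told apart. One label field gives a 28-day duration where the field for each sample gives 21 days, and the field for each sample was used.

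Chlorophyll a/b-binding proteins form the antennae that collect light for photosystems I and II, which drive electron flow across the thylakoid membrane. The energy so captured is spent in the Calvin cycle, whose carboxylating enzyme, Rubisco, is kept active by Rubisco activase. Most proteins of these complexes are encoded in the nucleus and imported, while the plastid keeps its own ribosomes and transcription machinery. The chloroplast also makes chlorophyll, carotenoids, starch and several amino acids. In crowns, green sheath bases and non-green meristem and stem tissue are harvested together, and with bulk RNA fewer cells of a type and less RNA per cell cannot be told apart.

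The 76 members fell into 9 roles: light harvesting (11), photosystems and thylakoid (13), carbon fixation and starch (10), pigment synthesis (7), plastid gene expression and protein turnover (11), redox (6), amino acid and cofactor synthesis (13), plastid transporters (2) and plastocyanin-like copper proteins (3). They matched 65 rice loci, and 19 members shared a locus with another member, so members are not independent of each other. The rice locus attached to a probe set is given as its identifier, as in the study's annotation. Its rice description can differ from the UniProt name: 3 light-harvesting members are attached to LOC_Os01g52250, which is described as a starch synthase, and they are named here by UniProt. Photosystem I subunit III (LOC_Os03g56670) is so named by its rice match alone. Its UniProt match is described only as an expressed protein. The panels of the plots carry the names of the probe sets. The word chloroplast alone brought in 46 of them, among them the enzymes of amino acid synthesis. All 76 were among the 31543 probe sets tested, which were those bright in at least 1 group. In the refitted model 72 members passed all 3 terms at an adjusted p under 0.001, as did 8.57% of the probe sets tested. By the F statistic of the interaction the members nearest to that limit were the ERD1 protein (3.29) and the sulfate transporter (3.30) on the inside, and phosphoserine aminotransferase (3.17) and the RelA homologue (3.16) on the outside.

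Array values are log2 signals, so a difference of 1 is a 2-fold difference, and values of different probe sets are not comparable with each other. Where 4 differences stand together without names, they run through the lines in the order given above, with both Norstar lines before both Manitou lines. Array medians lay between 5.66 and 5.78, and the median residual SD was 0.16 for the members and 0.149 for all probe sets tested. The Vrn-A1 probe set at 0 days averaged 5.42 ± 0.25 in winter Norstar and 9.49 ± 0.14 in spring Norstar, and 5.22 ± 0.79 in winter Manitou and 9.66 ± 0.17 in spring Manitou (SD, n = 3 each), as the line labels have it. The 3′ minus 5′ signal averaged 0.98 to 1.29 over the 32 groups for the 4 of 7 wheat control transcripts whose probe sets both averaged at least 5.15, the brightness limit. For the CYP86 control among them it was lower at 70 days, at 0.17 in winter Norstar, against 0.67 at 0 days, and at -0.29 in spring Norstar, against 0.49 at 0 days. In winter Manitou it was 0.19 at 70 days, against 0.68 at 0 days, and in spring Manitou -0.03, against 0.47 at 0 days. The sucrose synthase and glucose-6-phosphate dehydrogenase controls among them went the other way, higher at 70 than at 0 days in every line and most so in spring Manitou. There they were 4.052 ± 0.802 against 3.371 and 1.767 ± 0.521 against 1.335 (SD, n = 3 arrays at 70 days). One 70-day array of spring Manitou averaged 1.78 over the 4 controls. The part of these control signals in the late differences was not tested. No marker list of other tissues was fixed, so the tissue label was not checked by markers.

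Most light-harvesting members and all pigment-synthesis members had lower signals after 2 days of cold in all 4 lines. Winter Norstar had a negative difference at 2 against 0 days for 58 of the 76 members, spring Norstar for 49, winter Manitou for 54 and spring Manitou for 58, with medians of -0.36, -0.24, -0.33 and -0.35, beside medians of 0.03, 0.02, 0.04 and 0.03 over all probe sets tested. The 11 light-harvesting members had medians of -0.723, -0.570, -1.002 and -0.883, and the 7 pigment-synthesis members were lower in every line, with medians of -0.76, -0.46, -0.82 and -0.89. The 13 photosystem and thylakoid members were divided: 10, 7, 11 and 11 were lower, with medians of -0.10, -0.01, -0.21 and -0.35.

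The photosystem I antenna protein (LOC_Os07g38960) had the largest negative early difference of the light-harvesting members in every line. In winter Norstar it read 10.95, 10.81 and 10.73 at 2 days, against 12.41, 12.35 and 12.34 at 0 days. In winter Manitou it read 10.47, 10.50 and 10.47 at 2 days, against 12.33, 12.17 and 12.57 at 0 days. No array of the 2-day groups reached the 0-day range, and the same separation held in spring Norstar, at 10.85, 10.89 and 10.56 at 2 days against 12.11, 11.92 and 12.50 at 0 days, and in spring Manitou, at 10.67, 10.53 and 10.26 at 2 days against 12.17, 12.18 and 12.47 at 0 days. The differences of -1.54, -1.41, -1.88 and -1.79 are 2.7- to 3.7-fold. Another tested probe set has the same cluster number in its name but is outside the part of the list used here. It differed by only -0.15, -0.03, 0.03 and -0.11, and whether it measures the same transcript was not examined.

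The photosystem II light-harvesting protein (LOC_Os01g52250) also had lower signals at 2 days, with differences of -1.42, -1.34, -1.52 and -1.47. Its 2-day arrays read 10.17, 9.87 and 10.05 in winter Norstar against 11.45, 11.36 and 11.53 at 0 days, and 9.55, 9.50 and 9.20 in spring Manitou against 10.83, 10.57 and 11.27 at 0 days. Chlorophyll a/b-binding protein 1B-21 (LOC_Os06g21590), on the probe set with the wider range of 2, differed by -1.33, -1.14, -1.54 and -1.58. The antenna member that went the other way in all 4 lines was a chlorophyll a/b-binding protein on LOC_Os01g64960, which differed by 0.19, 0.41, 0.04 and 0.06. In spring Norstar 2 of the 11 light-harvesting members were higher, and in each other line 1.

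Among the members the widest early difference belonged to the photosystem II 10 kDa polypeptide (LOC_Os07g05365), a small protein of the oxygen-evolving side. At 2 days it read 5.01, 5.00 and 4.99 in winter Norstar, against 9.26, 9.22 and 9.91 at 0 days. In spring Manitou it read 5.68, 5.60 and 5.20 at 2 days, against 10.25, 9.68 and 10.64 at 0 days. The differences were -4.47, -4.40, -4.76 and -4.69, with standard errors of at most 0.30. The 2-day means in Norstar lie under 5.15, the brightness limit used to choose probe sets, so how far the transcript went below that level was not resolved. The array of replicate 3 was the highest of the 0-day arrays in every line, at 9.91, 10.22, 10.78 and 10.64. The paper lists another probe set of this description, which is not among the members and was not examined here. Its reported change over the whole course was larger in winter Norstar than in each other line.

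**Figure D1:**
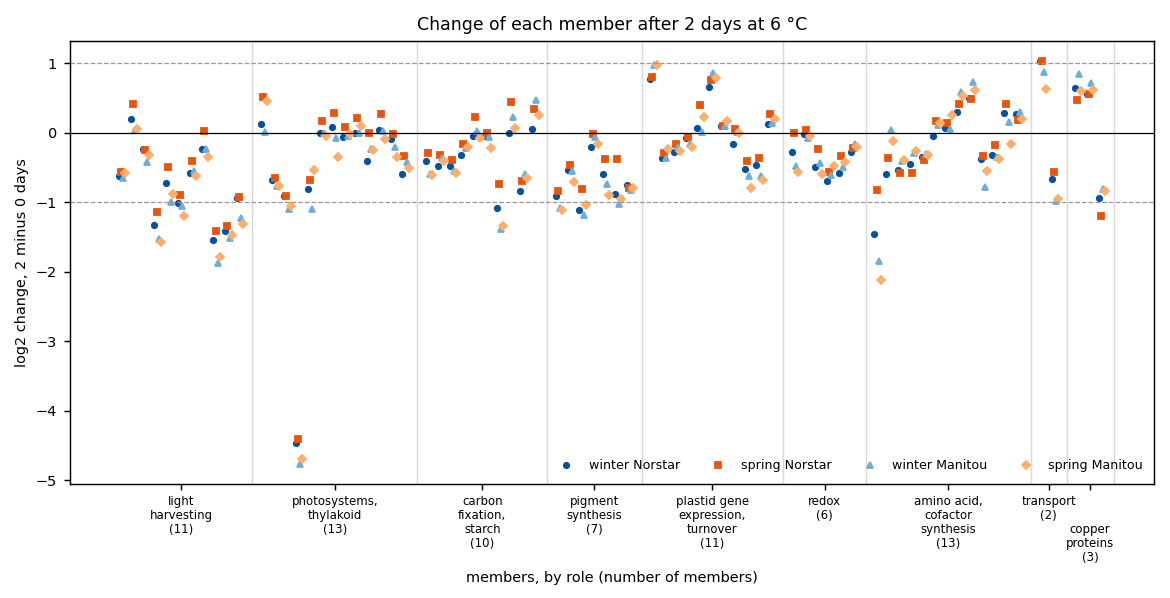
Log2 difference, 2 minus 0 days, of each of the 76 members, grouped by role along the x axis, with 1 point per line and dashed lines at 2-fold. The light-harvesting and pigment-synthesis points lie mostly below 0 in all 4 lines, the photosystem II 10 kDa polypeptide lies between -4.40 and -4.76, and the sulfate transporter stands highest, at 1.03 in both Norstar lines.

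Among the enzymes, aminolevulinic acid dehydratase (LOC_Os06g49110), an early step of chlorophyll and heme synthesis, read 7.04, 7.07 and 6.74 at 2 days in winter Norstar, against 8.16, 8.01 and 8.02 at 0 days. Its differences were -1.11, -0.81, -1.19 and -1.04. Chlorophyllide a oxygenase (LOC_Os10g41780), which makes chlorophyll b, differed by -0.91, -0.83, -1.08 and -1.12. Rubisco activase (LOC_Os11g47970) differed by -1.08, -0.74, -1.39 and -1.35. Calvin-cycle members were nearer to 0: sedoheptulose bisphosphatase (LOC_Os04g16680) differed by -0.41, -0.29, -0.60 and -0.61, and ribulose-phosphate epimerase (LOC_Os03g07300) by -0.04, 0.00, -0.07 and -0.22.

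Called here means an adjusted p under 0.01 in the limma fit over all probe sets and at least a 2-fold difference. At 2 against 0 days, winter Norstar had 8 members called lower (2.91% of all probe sets tested), spring Norstar 5 (2.84%), winter Manitou 14 (3.61%) and spring Manitou 11 (3.35%). Called higher was 1 member in winter Norstar (2.03%) and 1 in spring Norstar (2.42%), while winter Manitou (2.76%) and spring Manitou (2.46%) each had 0. Since the list was selected on these arrays, nothing is read from how these shares compare. Called lower in all 4 lines were the photosystem I antenna protein, the photosystem II light-harvesting protein and the photosystem II 10 kDa polypeptide. So was chlorophyll a/b-binding protein 1B-21 on its probe set with the wider range, but not on its other probe set. The remaining call in spring Norstar was the plastocyanin-like protein on LOC_Os08g04310. A tested probe set that shares its cluster number was not called there, with a difference of 0.18. Without replicate 3 the calls in both directions numbered 3 in spring Norstar, where the median was -0.11, and 7 in spring Manitou. The other 1638 tested probe sets of the same list, selected in the same way, were lower in 53.3%, 50.5%, 48.5% and 50.5% of cases, and the members in 76.3%, 64.5%, 71.1% and 76.3%.

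The largest positive differences at 2 days were in members of other roles. The sulfate transporter (LOC_Os09g06499) read 9.20, 9.13 and 9.42 at 2 days in winter Norstar, against 8.19, 8.23 and 8.24 at 0 days, and its differences were 1.03, 1.03, 0.88 and 0.63. Plastid ribosomal protein L21 (LOC_Os05g48410) differed by 0.77, 0.80, 0.97 and 0.98, and DNA gyrase subunit A (LOC_Os03g59750), a topoisomerase subunit of the plastid, by 0.66, 0.75, 0.85 and 0.78. The plastocyanin-like protein on LOC_Os09g29390, on the probe set with the wider range of 2, differed by 0.65, 0.47, 0.84 and 0.60.

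The later differences varied between the lines. At 42 against 2 days winter Norstar had a median difference of 0.15 over the members, spring Norstar of -0.26, winter Manitou of 0.05 and spring Manitou of 0.17, and 53, 20, 42 and 44 members were positive. With 35 in place of 42 days the medians were 0.289, -0.326, 0.027 and -0.122 and each line had 1 call, and without replicate 1 the winter Manitou median was -0.021. Winter Norstar had 2 members called higher (3.17% of all probe sets), spring Norstar 2 (3.24%), winter Manitou 3 (2.34%) and spring Manitou 6 (3.19%). The members called lower numbered 0 (1.48%) and 11 (2.20%) in the winter and spring lines of Norstar, and 0 (0.913%) and 2 (1.41%) in those of Manitou. With 1 replicate left out and both directions counted, replicate 3 gave 1 call in winter Norstar, replicate 2 gave 8 in spring Norstar and 1 in winter Manitou, and replicate 1 gave 13 in spring Manitou.

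The antenna transcripts reached their low points at different times. Winter Norstar had 8 of the 11 light-harvesting members at their lowest at 70 days, spring Norstar 9 at 35 days, winter Manitou 7 at 2 days and spring Manitou 7 at 21 days. Chlorophyll a/b-binding protein 3C, on the probe set of LOC_Os01g52250 with the wider range of the 2 so described, follows this course. It averaged 9.87 ± 0.15 at 2 days, 10.20 ± 0.22 at 21 days, 10.20 ± 0.09 at 42 days and 8.70 ± 0.68 at 70 days in winter Norstar. On those days it averaged 8.91 ± 0.23, 7.64 ± 0.47, 9.30 ± 0.10 and 8.93 ± 0.55 in spring Manitou (SD, n = 3 each). The 70-day arrays of winter Norstar read 8.47, 8.17 and 9.47, with 1 array above the other two.

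**Figure D2:**
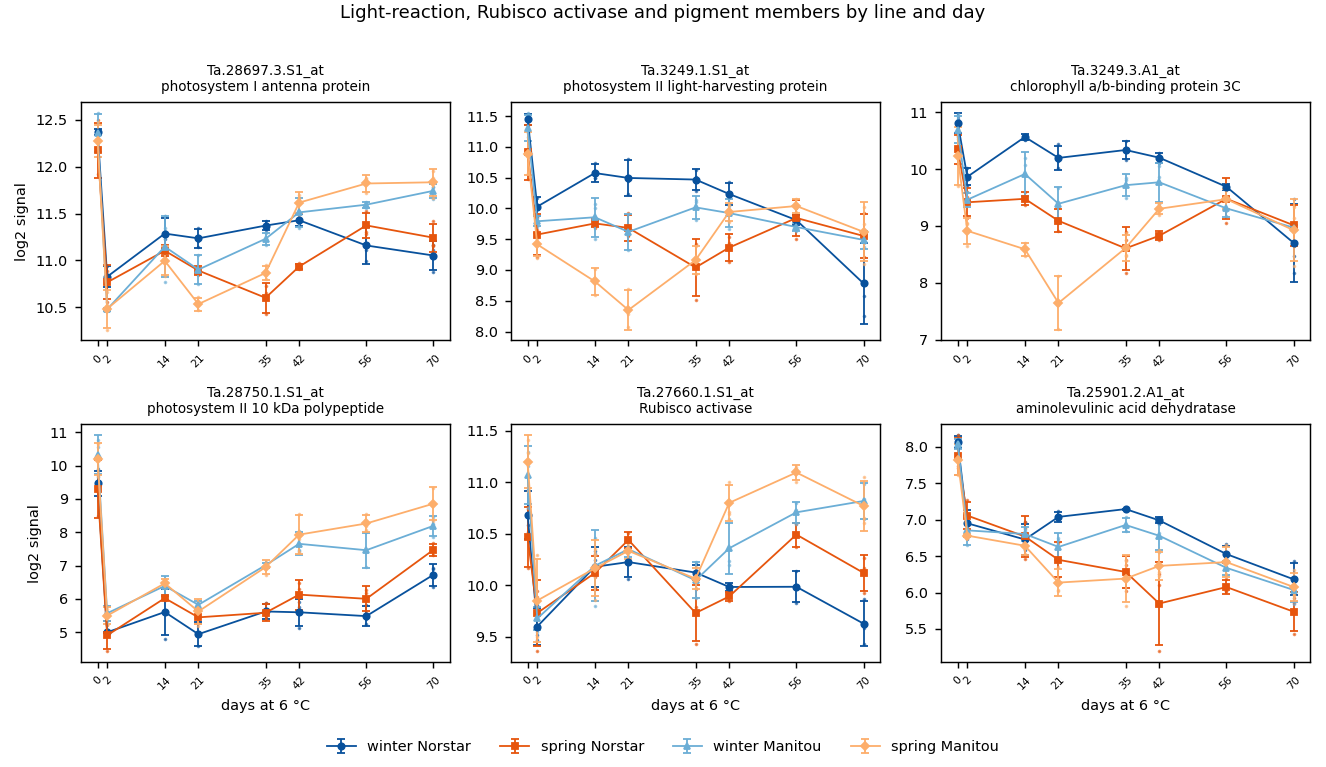
Log2 signal of 6 members against days at 6 °C, as group means with SD bars (n = 3 arrays) and small points for single arrays, 1 colour and symbol per line. All 6 are lower at 2 than at 0 days in every line, and chlorophyll a/b-binding protein 3C (LOC_Os01g52250) then reaches 7.64 in spring Manitou at 21 days, below all its other groups.

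The photosystem II 10 kDa polypeptide (LOC_Os07g05365) was higher at 70 than at 2 days in each line. At 70 days winter Norstar averaged 6.72 ± 0.33, against 9.46 ± 0.38 at 0 days, and spring Norstar 7.47 ± 0.18, against 9.31 ± 0.86 at 0 days. Winter Manitou averaged 8.19 ± 0.30 at 70 days, against 10.33 ± 0.59 at 0 days, and spring Manitou 8.86 ± 0.49, against 10.19 ± 0.49 at 0 days (SD, n = 3 each). At 42 against 2 days its differences were 0.60, 1.22, 2.08 and 2.43. Rubisco activase (LOC_Os11g47970) differed by 0.38, 0.16, 0.68 and 0.95. The phosphate transporter (LOC_Os02g38020) differed by 0.61, 0.65, 1.15 and 1.38. Granule-bound starch synthase (LOC_Os07g22930), which makes amylose, was higher by 1.32 in winter Norstar, beside 0.50, -0.05 and 0.37 in the other lines. The member matched to photosystem I subunit III in rice (LOC_Os03g56670) was higher by 1.00 in winter Norstar, beside -0.01, 0.57 and 0.20.

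Winter lines stood above spring lines in most members at 14, 21 and 35 days. Averaged over 14, 21, 35 and 42 days, the winter minus spring difference was positive for 64 of 76 members in Norstar, with a median of 0.42, and for 57 in Manitou, with a median of 0.16. The medians over all probe sets tested were 0.00 in both. Called higher were 5 members in Norstar (0.472% of all probe sets) and 1 in Manitou (0.190%), and called lower were 2 in Norstar (0.675%) and 1 in Manitou (0.250%), the last lost without replicate 2. Whether the difference was larger in Norstar than in Manitou was not tested.

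Single days differed. In Norstar the winter line was higher in 41 of 76 members at 2 days, 69 at 42 days, 50 at 56 days and 35 at 70 days. In Manitou it was higher in 47 members at 2 days, 36 at 42 days, 20 at 56 days and 36 at 70 days, with a median of -0.14 at 56 days. The 3′ minus 5′ signal of the CYP86 control at 42 days was 0.46 in winter Norstar and 0.16 in spring Norstar, and 0.47 in winter Manitou and 0.26 in spring Manitou, and its part in these differences was not tested. The winter minus spring median of the light-harvesting members in Norstar was 0.20 at 0 days, 0.04 at 2 days, 0.38 at 14 days, 0.41 at 21 days, 0.93 at 35 days, 0.53 at 42 days, 0.03 at 56 days and -0.21 at 70 days, with all 11 positive from 14 to 42 days. In Manitou it was 0.09, 0.07, 0.30, 0.42, 0.43, -0.02, -0.20 and 0.05 on the same days. At 35 days the medians were 0.93 in Norstar and 0.43 in Manitou, and at 42 days 0.53 in Norstar and -0.02 in Manitou.

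**Figure D3:**
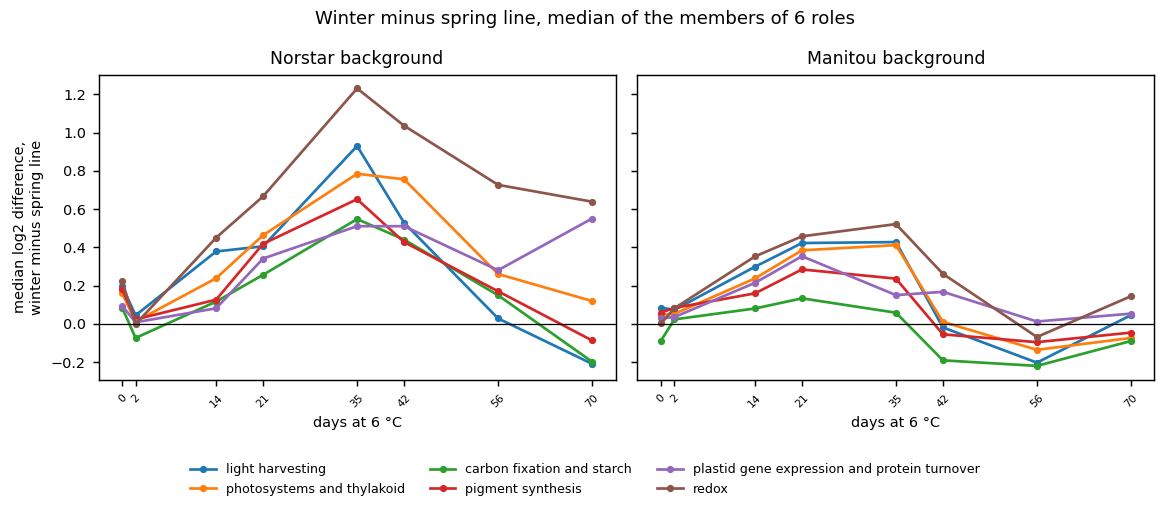
Median log2 difference, winter minus spring line, of the members of 6 roles against days at 6 °C, in the Norstar (left) and Manitou (right) backgrounds. In Norstar redox members reach 1.23 and light-harvesting members 0.93 at 35 days, and in Manitou light-harvesting members reach 0.43 at 35 days and lie at -0.02 at 42 days.

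Chlorophyll a/b-binding protein 3C (LOC_Os01g52250) was called higher in both backgrounds. At 35 days it read 10.16, 10.36 and 10.49 in winter Norstar, against 8.89, 8.17 and 8.76 in spring Norstar. At 21 days it read 9.08, 9.42 and 9.68 in winter Manitou, against 7.19, 7.62 and 8.13 in spring Manitou. The groups did not overlap in either case, and the differences over the 4 durations were 1.32 in Norstar and 1.16 in Manitou. The photosystem II light-harvesting protein, on the same rice locus, differed by 0.98 in Norstar and 0.79 in Manitou. The other probe set named chlorophyll a/b-binding protein 3C on this locus was called in neither background. Over the group means it correlated at r = 0.34 with the 3C probe set whose values are given here. Phytoene synthase (LOC_Os06g51290), the entry enzyme of carotenoid synthesis, read 7.15, 6.92 and 7.26 at 35 days in winter Norstar, against 6.07, 5.74 and 5.87 in spring Norstar, and differed by 1.06 over the 4 durations in Norstar and 0.16 in Manitou.

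Indole synthase (LOC_Os03g58300), so named by its UniProt description, went the opposite way. At 35 days it read 4.03, 4.28 and 4.64 in winter Norstar, against 8.40, 7.17 and 7.47 in spring Norstar, and 6.82, 6.87 and 7.06 in winter Manitou, against 8.45, 8.44 and 7.68 in spring Manitou. Over the 4 durations the winter minus spring difference was -2.92 in Norstar and -1.16 in Manitou. The winter Norstar values lie under 5.15. At 2 against 0 days it had differed by -1.46, -0.82, -1.85 and -2.12. Indole-glycerol phosphate lyase, which matched the same rice locus, differed by -0.25 in Norstar and 0.34 in Manitou, and the pair correlated at r = -0.44 over the 32 group means. The plastocyanin-like protein on LOC_Os08g04310 was also lower in winter lines, with differences of -1.05 in Norstar and -0.69 in Manitou. A tested probe set with the same cluster number, outside the part of the list used here, differed by only -0.008 and -0.042.

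The plastid ribosomal proteins L12, L15 and L19 and peroxiredoxin Q were lowest at 70 days in all 4 lines. Peroxiredoxin Q is a thiol peroxidase of the thylakoid that removes peroxides. Of its 3 probe sets (LOC_Os06g09610), the one drawn beside the ribosomal proteins read 8.69, 8.56 and 8.56 at 42 days in winter Norstar, against 8.20, 8.24 and 8.15 at 2 days. In spring Norstar it read 7.47, 7.03 and 7.06 at 42 days, against 8.12, 8.35 and 8.13 at 2 days. At 2 days it averaged 8.20 ± 0.05 in winter Norstar and 8.20 ± 0.13 in spring Norstar, and the 42-day arrays lay above them in winter Norstar and below them in spring Norstar.

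Ribosomal protein L15 (LOC_Os03g12020), of the large subunit of the plastid ribosome, averaged 10.98 ± 0.14 at 2 days, 11.05 ± 0.19 at 42 days and 9.91 ± 0.20 at 70 days in winter Norstar, and 10.95 ± 0.13, 9.87 ± 0.29 and 8.90 ± 0.19 in spring Norstar. The corresponding means in winter Manitou were 10.92 ± 0.10, 10.65 ± 0.36 and 9.45 ± 0.16, and in spring Manitou 10.80 ± 0.12, 10.10 ± 0.20 and 9.25 ± 0.39. At 42 against 2 days L12 (LOC_Os01g47330) differed by -0.28, -1.42, -0.43 and -0.95, and L19 (LOC_Os02g43600) by -0.19, -1.39, -0.35 and -0.78. The 11 members called lower in spring Norstar held 5 of the role of plastid gene expression and protein turnover and 2 peroxiredoxin Q probe sets, which measure 1 locus.

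**Figure D4:**
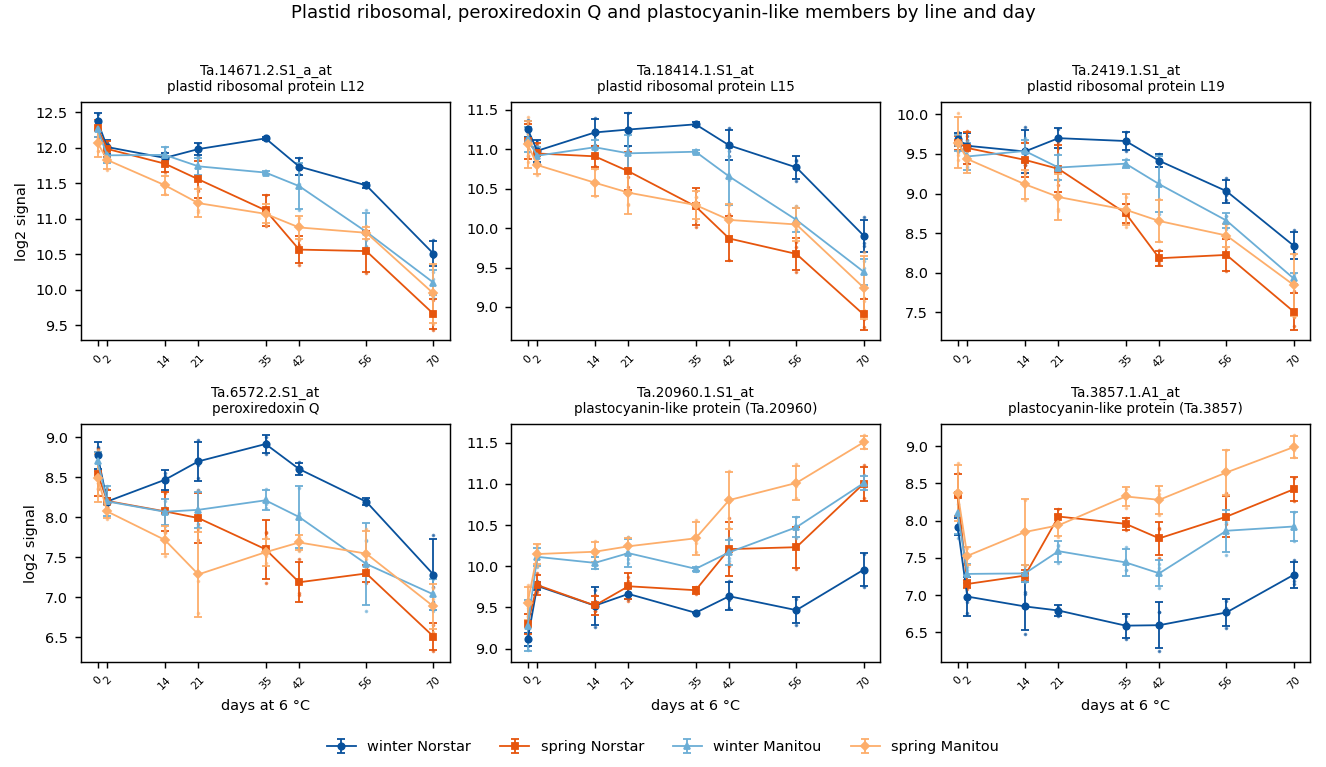
Log2 signal of 3 plastid ribosomal proteins, peroxiredoxin Q and 2 plastocyanin-like proteins against days at 6 °C, as group means with SD bars (n = 3 arrays) and points for single arrays. The ribosomal proteins are lowest at 70 days in all 4 lines, L15 (LOC_Os03g12020) reaching 8.90 in spring Norstar, while the plastocyanin-like protein on LOC_Os09g29390 is highest at 70 days, at 11.50 in spring Manitou.

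Plastocyanin-like copper proteins bind a single copper ion and resemble the electron carrier plastocyanin. That on LOC_Os09g29390, on the same probe set as above, was highest at 70 days in each line. It read 9.97, 10.15 and 9.75 in winter Norstar at 70 days, 11.23, 10.94 and 10.83 in spring Norstar, 10.94, 10.99 and 11.10 in winter Manitou and 11.43, 11.59 and 11.49 in spring Manitou. Winter Norstar stood below the other 3 lines without overlap. An arogenate dehydrogenase (LOC_Os06g49505), a step of tyrosine synthesis, averaged 9.08 ± 0.11 in winter Norstar and 10.38 ± 0.25 in spring Norstar at 70 days, and 9.63 ± 0.15 in winter Manitou and 10.92 ± 0.35 in spring Manitou (SD, n = 3 each).

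Norstar and Manitou backgrounds differed in a few members by a wide margin. Averaged over the 7 cold durations, the Norstar minus Manitou difference had a median of 0.11 between winter lines and -0.04 between spring lines, and was positive for 49 and 28 members. Called higher was 1 member between winter lines (2.29% of all probe sets) and 1 between spring lines (2.00%), and called lower were 2 (1.78%) and 3 (1.40%). The member called higher in both was Rubisco small subunit methyltransferase (LOC_Os02g49326). At 42 days it read 6.53, 6.14 and 6.27 in winter Norstar, against 3.15, 3.14 and 2.99 in winter Manitou, and 5.56, 4.98 and 4.67 in spring Norstar, against 3.08, 2.98 and 3.07 in spring Manitou. All its Manitou group means lay between 2.94 and 3.28, under the 5.15 limit, so the sizes of the differences, 3.14 between winter lines and 2.45 between spring lines, were not resolved.

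The photosystem II 10 kDa polypeptide was lower in Norstar, with differences of -1.30 between winter lines and -1.15 between spring lines. The member matched to photosystem I subunit III in rice differed by -0.80 between winter lines and -1.08 between spring lines. Phytoene synthase differed by -0.47 between winter lines and -1.33 between spring lines, and indole synthase by -1.63 and -0.49 in the same order. For the light-harvesting members the difference depended on the day: between winter lines the Norstar minus Manitou median was 0.47 at 21 days, -0.01 at 42 days and -0.68 at 70 days, when all 11 were negative.

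**Figure D5:**
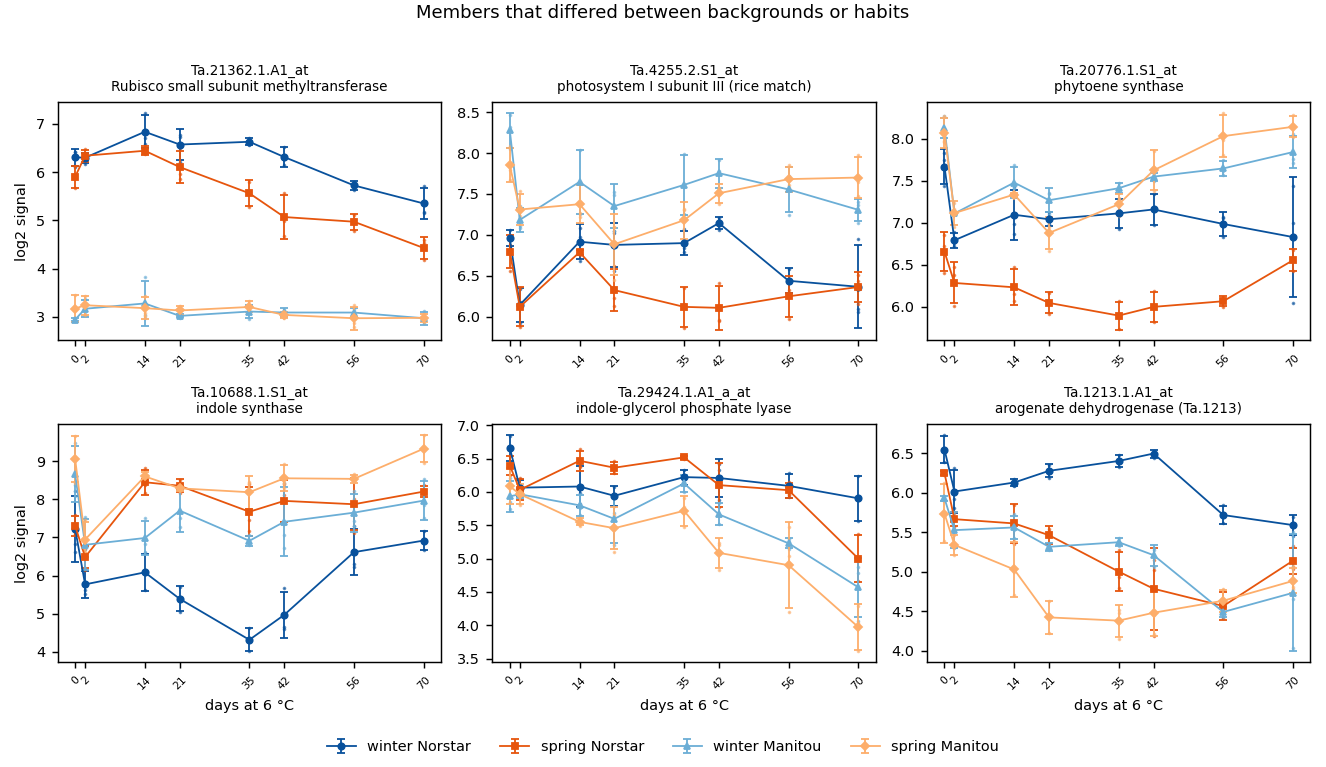
Log2 signal of 6 members that differed between backgrounds or habits against days at 6 °C, as group means with SD bars (n = 3 arrays) and points for single arrays. Rubisco small subunit methyltransferase (LOC_Os02g49326) lies between 2.94 and 3.28 in both Manitou lines and between 4.43 and 6.84 in the Norstar lines, and indole synthase (LOC_Os03g58300) reaches 4.31 in winter Norstar at 35 days.

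The range over the 32 group means was smallest for the RelA homologue (LOC_Os03g22160), at 0.59, and for the riboflavin synthesis protein (LOC_Os08g37605), at 0.62. Oxygen-evolving enhancer protein 3 (LOC_Os02g36850) stayed near or under the 5.15 limit throughout, between 3.78 and 5.49. The dihydrodipicolinate reductases of lysine synthesis (LOC_Os02g24020), measured by 2 probe sets, differed by -0.65, -0.93, -0.62 and -0.90 and by -0.70, -0.91, -0.52 and -1.06 at 42 against 2 days. Pyruvate phosphate dikinase (LOC_Os05g33570) was lowest at 2 days in winter Norstar, at 6.62 ± 0.07, and highest at 70 days in spring Manitou, at 8.33 ± 0.06. Deoxyxylulose phosphate synthase (LOC_Os05g33840), the first enzyme of the plastid isoprenoid pathway, was highest at 0 days in all 4 lines.

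Members of 1 role varied together to differing degrees. Over the 32 group means, which share their arrays, the median Pearson r was 0.69 among the 55 pairs of light-harvesting members and 0.26 among all 2850 pairs of members, and over the deviations of the 96 arrays from their group means it was 0.64 and 0.20. Light-harvesting members correlated with pigment-synthesis members at a median r of 0.64 over group means and with plastid gene expression members at 0.17. Photosystem I subunit IV (LOC_Os07g25430) was close to the mean of the light-harvesting members, at r = 0.97. The 14 pairs on 1 rice locus had a median r of 0.89. The 0-day arrays of replicate 3 lay above their group in mean light-harvesting signal by 0.01 in winter Norstar and 0.25 in spring Norstar, and by 0.19 in the winter and 0.24 in the spring line of Manitou. The part of this deviation in the early differences was not tested, and without replicate 3 the members at 2 against 0 days had a median of -0.31 in winter Norstar and -0.11 in spring Norstar, beside -0.30 in winter Manitou and -0.24 in spring Manitou.

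A photosynthesis gene, petC, was found outside the part of the study's list used here. Whether the rest of that list holds it was not examined, so its tests are not shown to be independent of the selection. The array annotation names a gene for only 1273 probe sets, so other such genes may have been missed. Of 2 probe sets annotated petC, 1 was tested. The other had group means between 3.29 and 3.62, under the brightness limit. The tested probe set measures the transcript of the Rieske protein of the cytochrome b6f complex, which carries electrons between the photosystems. It read 11.33, 11.13 and 11.11 at 2 days in winter Norstar, against 11.63, 11.92 and 11.77 at 0 days. It was lower at 2 days by limma in all 4 lines, at -0.58 (adjusted p = 2e-05), -0.43 (adjusted p = 0.0017), -0.62 (adjusted p = 5e-06) and -0.64 (adjusted p = 3e-06), each with a standard error of 0.11 and none reaching 2-fold. The winter minus spring difference was 0.36 ± 0.06 (SE) in Norstar (limma, adjusted p = 2.8e-07) and 0.03 ± 0.06 in Manitou (limma, adjusted p = 0.82), and the difference between the backgrounds was not tested. At 42 against 2 days only spring Manitou passed 0.01, at 0.41 (limma, adjusted p = 0.0026). Of 60 probe sets that share a cluster number with a member but were not in the part of the list used here, 16 were tested, and at 2 against 0 days 0, 0, 1 and 1 of them were called lower, with medians of -0.17, -0.22, -0.26 and -0.34.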

How the data were processed

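Crown RNA of 4 wheat lines at 8 durations of cold was hybridized to the Affymetrix Wheat GeneChip (96 arrays). The deposited values are log2 signals: the authors read the scans with MAS and ran RMA in GeneSpring, whose version is not given in the sources used here. RMA corrects background, makes the arrays' distributions equal by quantiles and combines the probes of a set. They were used as deposited. Precision rests on 3 arrays per group, which the paper calls biological replicates, each a pool of crowns. Nothing in the labels says whether these were separate plantings, so p-values measure only the spread between these pools.

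The 61179 probe sets other than the 111 controls were ranked by highest group mean, and as many were kept as the study states to be present (limit 5.15). Those ending in _x_at or _s_at were dropped, leaving 31543 (51.6%). Detection calls were not used. A model of 32 group means was fitted in limma 3.58.1 (R 4.3.3), with Benjamini-Hochberg adjustment over all probe sets tested. In 12 comparisons a probe set was called at an adjusted p under 0.01 and at least 2-fold. Descriptions were computed in Python 3.11.15 with pandas 2.3.3, and the fit was tested on simulated data. Roles were assigned by hand from the descriptions. Values are described for the members with the widest range of group means in each role, and for the 5 with the largest difference in each comparison of habits or backgrounds (26 members); the rest are given as examples chosen after their values were seen. The members, roles and lists were chosen with earlier results of these data known. Alternatives are given in the closing section.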

Additional observations from a re-analysis of the deposited data

Results flagged for a closer look

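Of 26 members checked, 4 stood on opposite sides in a pair of lines at 42 against 2 days, with every 42-day array on one side of the 2-day arrays in one line and on the other side in the other. The difference between the lines was not tested, and these are the members with the widest values, so the pattern is a description. Arogenate dehydrogenase (LOC_Os06g35050) differed by 0.48 in winter Norstar and -0.88 in spring Norstar. Chlorophyll a/b-binding protein 3C (LOC_Os01g52250), on its wider-ranging probe set, differed by 0.34 in winter Norstar and -0.59 in spring Norstar. In spring Manitou it differed by 0.39. Peroxiredoxin Q (LOC_Os06g09610) differed by 0.41 in winter Norstar and -0.91 in spring Norstar on one probe set, and by 0.41 in winter Norstar and -1.02 in spring Norstar on another. Its remaining member probe set was checked and did not separate in this way. A tested probe set with the same cluster number, outside the part of the list used here, differed by 0.015 in winter Norstar and -0.526 in spring Norstar.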

How the results depend on the processing

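The medians of the members and the counts called were recomputed under 15 alternatives, given here as both directions together. With the replicate number as a replicate block no count or median differed from the main one: the calls at 2 against 0 days were 9, 6, 14 and 11 in winter Norstar, spring Norstar, winter Manitou and spring Manitou, and the medians -0.357, -0.242, -0.328 and -0.348. Each group holds every replicate number, so this block could not move the medians, only the counts. Same-numbered arrays of different lines deviated together at 0 days (mean r = 0.545, 18 of 18 pairs over 0.1, beside -0.25 for other numbers). They did so less on cold days (0.169, 91 of 126, beside -0.0842). The 3 deviations of a group sum to 0, so the values for other numbers largely follow from those for the same number. They are no separate comparison. No label says what the replicate numbers mark, and same-numbered arrays were not taken as pairs in the main fit. The differences of the lines from 0 days share such deviations, so they are not independent of each other. A random harvest block, variance trend with robust moderation, no brightness limit and keeping the _x_at and _s_at probe sets also left all 12 comparisons on the same side, as did 1 probe set per rice locus for the medians. Apart from the last, which drops members, these settings leave the members' log2 differences unchanged, so only the counts called could move.

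Leaving out 1 replicate in turn gave 6 to 10, 3 to 9, 11 to 16 and 7 to 14 calls at 2 against 0 days in that order of lines, with medians of -0.347 to -0.314, -0.301 to -0.105, -0.371 to -0.298 and -0.435 to -0.237. At 42 against 2 days the calls were 1 to 2, 8 to 19, 1 to 4 and 7 to 13, and the median of winter Manitou was -0.021 to 0.075, turning sign without replicate 1. Winter minus spring gave 5 to 8 calls in Norstar, with medians of 0.364 to 0.442, and 1 to 2 in Manitou.

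Without the 2-fold limit the calls were 39, 32, 40 and 37 at 2 against 0 days (27.4%, 26.2%, 29.7% and 28.7% of all probe sets), 24, 42, 23 and 41 at 42 against 2 days (29.4%, 31.2%, 21.6% and 28.3%), 57 and 32 for winter minus spring in Norstar and Manitou (19.1% and 8.60%), and 57 and 38 for Norstar minus Manitou in winter and spring lines (39.8% and 32.7%). With 35 in place of 42 days each line had 1 call, the winter Norstar median was 0.289, and the spring Manitou median turned to -0.122. With 14 and 21 days only, winter minus spring gave 2 calls in Norstar and medians of 0.258 in Norstar and 0.208 in Manitou. Centring arrays gave -0.307 for winter Norstar at 2 against 0 days and 1 call there at 42 against 2 days. Array weights gave -0.278 for winter Manitou at 2 against 0 days, and 1 call in winter Norstar and 5 in spring Manitou at 42 against 2 days. With the 20000 brightest probe sets, 69 members were left, and the medians were -0.367 for winter Manitou at 2 against 0 days and 0.076 for Norstar minus Manitou in winter lines. Where a setting moved a value, the cause was not tested.

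The number of arrays, 3 per group, limits the precision, and signals under 5.15 lie below the brightness limit, where sizes of differences were not resolved.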
